A study of Mus musculus with 18 samples.

Results

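Necroptosis genes in the mouse heart after acute myocardial infarction (AMI) were followed through 6 members, the kinases Ripk1 and Ripk3, the pore-forming pseudokinase Mlkl, and the caspase-8 branch that holds them back, made of Casp8, Cflar and Fadd. They were chosen by symbol as the core of the pathway, and all 6 were found among the 24419 symbols of the table and passed the filter on low values. RNA-seq was performed on the left ventricle of 18 C57BL/6 mice, 8 weeks old, in 6 groups of 3 mice. The control mice, called sham in the study, were compared with mice whose left anterior descending coronary artery had been tied off near its origin for 10 min, 1 h, 6 h, 24 h or 72 h. No transgene, deletion or drug beyond pentobarbital anaesthesia (50 mg/kg) is named for these mice. After ligation the infarcted myocardium was taken, so each value is an average over the cells of that tissue. The question was when each gene of the pathway changed and whether the arms of the pathway moved alike.

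Necroptosis is a lytic form of programmed cell death. A death receptor or a nucleic acid sensor brings RIPK1 and RIPK3 together, RIPK3 phosphorylates MLKL, and MLKL then breaks the plasma membrane. Caspase-8, recruited by the adaptor FADD and paired with the caspase-like protein cFLIP (Cflar), cleaves the kinases and so keeps this route shut, which is why loss of Casp8 in mice is lethal unless Ripk3 or Mlkl is also lost. The pathway is switched by phosphorylation and cleavage, neither of which RNA levels measure. In the heart it is known as one of the routes of cell loss after ischemia.

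The deposited values are FPKM, which count fragments per length of transcript and per total of mapped fragments. A level below is an FPKM, and a change is the difference in log2(FPKM + 1) between the means of 3 mice, tested with limma on the 6 mice compared. A gene was called where the Benjamini-Hochberg adjusted p over all tested genes was under 0.05. The FPKM of a mouse summed to 542418 to 600467, and read counts were not used here. Cardiomyocyte genes were abundant in every group. The summed FPKM of 8 of them (among them Tnnt2, Myh6 and Actc1) was 54361 to 57836 in sham mice, and 20006 to 24864 at 72 h. In bulk tissue, fewer cells of a type and less RNA per cell cannot be told apart. The least alike mice of a group were those at 24 h, with a lowest correlation over genes of 0.969.

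The members lie at 6 loci, given here in GENCODE M21 on mm10, and all are protein coding. Cflar, at chr1:58711508-58758884, and Casp8, at chr1:58795374-58847503, are neighbours on the forward strand. Fadd is at chr7:144577318-144582463 on the reverse strand, Mlkl at chr8:111311797-111338177 on the reverse strand, Ripk1 at chr13:34002363-34037147 on the forward strand and Ripk3 at chr14:55784995-55788865 on the reverse strand. Exons of Ripk1 overlap those of Serpinb6a, a serine protease inhibitor on the opposite strand, over 241 bases, which is 2.89% of the exonic bases of Ripk1. They also overlap a processed pseudogene, Gm17084, over 511 bases, and Fadd overlaps its antisense transcript Faddos over 239 bases. Whether the counting used strand is not given in the sources used here, so reads over these bases cannot be told apart. Serpinb6a was at 77.0 FPKM in sham mice and 76.7 at 6 h, when Ripk1 was already called higher, and at 203 FPKM at 72 h.

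Promoter windows of the members, 250 bases before to 50 after a start site, were taken from RefSeq on GRCm38.p6, and all 6 genes matched, Ripk1 with more than 1 window. The windows were searched on both strands for an interferon-stimulated response element core (GAAANNGAA), a gamma-activated site (TTCNNNGAA), NF-kappaB words (GGGACTTTC, GGGAATTTC, GGGAAATTC, GGGAATTCC) and an AP-1 word, either TGACTCA or, with the centre changed, TGAGTCA. Among 32851 promoter windows, 8.56% held the response element core, 8.30% the gamma-activated site, 1.04% an NF-kappaB word and 5.20% an AP-1 word. A window of each kinase is shown because it holds a match, and those of Casp8 and Mlkl because these genes were first called at different times. Capitals mark the matches.
Ripk3, chr14:55788808-55789107, reverse strand: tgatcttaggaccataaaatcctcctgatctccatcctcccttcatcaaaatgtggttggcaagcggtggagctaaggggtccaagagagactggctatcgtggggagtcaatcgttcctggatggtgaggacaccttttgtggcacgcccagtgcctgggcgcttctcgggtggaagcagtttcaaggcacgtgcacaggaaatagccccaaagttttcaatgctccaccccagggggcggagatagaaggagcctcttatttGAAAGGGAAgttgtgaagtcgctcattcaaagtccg
Ripk1, chr13:34002624-34002923, forward strand: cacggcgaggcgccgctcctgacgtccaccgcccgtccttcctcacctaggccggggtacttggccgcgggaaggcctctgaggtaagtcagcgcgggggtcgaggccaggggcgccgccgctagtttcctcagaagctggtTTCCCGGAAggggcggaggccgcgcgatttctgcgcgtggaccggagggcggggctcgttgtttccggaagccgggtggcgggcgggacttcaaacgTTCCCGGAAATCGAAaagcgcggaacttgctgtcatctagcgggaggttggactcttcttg
Casp8, chr1:58802252-58802551, forward strand: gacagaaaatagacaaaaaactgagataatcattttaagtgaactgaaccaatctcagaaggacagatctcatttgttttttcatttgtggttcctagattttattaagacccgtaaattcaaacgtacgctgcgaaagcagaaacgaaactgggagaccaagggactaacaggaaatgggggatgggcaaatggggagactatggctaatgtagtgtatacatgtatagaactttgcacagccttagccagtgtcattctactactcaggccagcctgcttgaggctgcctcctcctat
Mlkl, chr8:111338156-111338455, reverse strand: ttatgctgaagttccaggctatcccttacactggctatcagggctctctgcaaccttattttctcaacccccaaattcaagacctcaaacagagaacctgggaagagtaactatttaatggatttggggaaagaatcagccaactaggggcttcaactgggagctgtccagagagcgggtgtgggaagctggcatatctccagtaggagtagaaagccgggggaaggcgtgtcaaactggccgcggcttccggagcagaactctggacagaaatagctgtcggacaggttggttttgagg
The Ripk3 window held 1 response element core, starting at base 15 after the start site. The Ripk1 window shown held the gamma-activated word at 2 places, -108 and -11, and a response element core at -5 that shares bases with the second. The other Ripk1 window, chr13:34002113-34002412, spans the gene start given above and held no match. The Casp8 window lies within the gene and does not reach the gene start at chr1:58795374, which was not searched. The Cflar window, not shown, held a response element core on the other strand, at base 8. These matches describe letters only.

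No member was called at 10 min or at 1 h. At 10 min, 0 of 6 members passed, beside 0.346% of all tested genes called. None had an unadjusted limma p under 0.05, beside 1955 of 13297 tested genes. At 1 h, again 0 of 6 were called, beside 0.722% of all genes. None had an unadjusted limma p under 0.05, beside 1673 of 13300 tested genes. The changes at these times lay between -0.18 (Casp8, 1 h) and 0.23 (Ripk1, 10 min) on the log2 scale. Casp8 was the only member whose mice at 1 h (3.40, 3.87 and 3.66 FPKM) all lay below the sham mice (4.15, 4.01 and 4.64 FPKM), a pattern that 10.9% of all genes shared.

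Ripk3, the kinase that activates MLKL, rose most. Its level was 4.58, 4.65 and 6.38 FPKM in the sham mice, and 20.9, 11.4 and 13.3 FPKM at 6 h. At 24 h it was 14.7, 16.5 and 43.9 FPKM, and at 72 h 37.5, 44.0 and 39.1 FPKM. All mice at 6 h and later lay above all sham mice, and the third mouse at 24 h was as high as those at 72 h. The log2 change against sham was 1.35 (SE 0.22, adjusted p = 0.00597) at 6 h, 1.91 (SE 0.38, adjusted p = 0.0123) at 24 h and 2.74 (SE 0.12, adjusted p = 1.75e-07) at 72 h. At 72 h the mean FPKM was 7.73 times that of sham.

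Ripk1, the kinase that sits at the death receptor complex and steers it to survival or death, moved less. Its level was 5.52, 5.29 and 7.16 FPKM in sham mice, and 12.0, 7.46 and 9.22 FPKM at 6 h. At 24 h it was 8.75, 10.8 and 14.9 FPKM, and at 72 h 20.6, 22.1 and 23.2 FPKM. The second mouse at 6 h was just above the highest sham mouse, and the mice at 72 h were all above those of every other group. Mice at 72 h all lay above those at 24 h in 37.3% of all tested genes. The log2 change was 0.58 (SE 0.18, adjusted p = 0.0457) at 6 h, 0.82 (SE 0.20, adjusted p = 0.0196) at 24 h and 1.73 (SE 0.11, adjusted p = 1.37e-06) at 72 h. The call at 6 h was the weakest of the members: it was lost without any 1 of the 3 sham mice, without the first or the third mouse at 6 h (adjusted p 0.0612 to 0.142), with no filter on low values (adjusted p = 0.0783), and with each mouse rescaled to the same sum (adjusted p = 0.0570).

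Mlkl, which breaks the membrane when phosphorylated, had not moved by 6 h. It was at 0.814, 1.07 and 0.944 FPKM in sham mice and at 1.00, 0.658 and 0.943 FPKM at 6 h. At 24 h it was at 1.61, 2.09 and 3.08 FPKM, and at 72 h at 3.56, 4.45 and 4.14 FPKM. Sham and 6 h mice overlapped, while each mouse at 24 h lay above all of them and each at 72 h above all at 24 h. Of all tested genes, 39.3% lay wholly above sham at 24 h and 36.2% wholly above 6 h. At 72 h, 37.3% lay wholly above 24 h. The log2 change was -0.06 (SE 0.11, adjusted p = 0.696) at 6 h, 0.73 (SE 0.17, adjusted p = 0.0190) at 24 h and 1.38 (SE 0.10, adjusted p = 3.09e-06) at 72 h. Because Mlkl is low, the added 1 FPKM shrinks its change: with 0.1 added it was 1.14 at 24 h and 2.0 at 72 h.

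**Figure D1:**
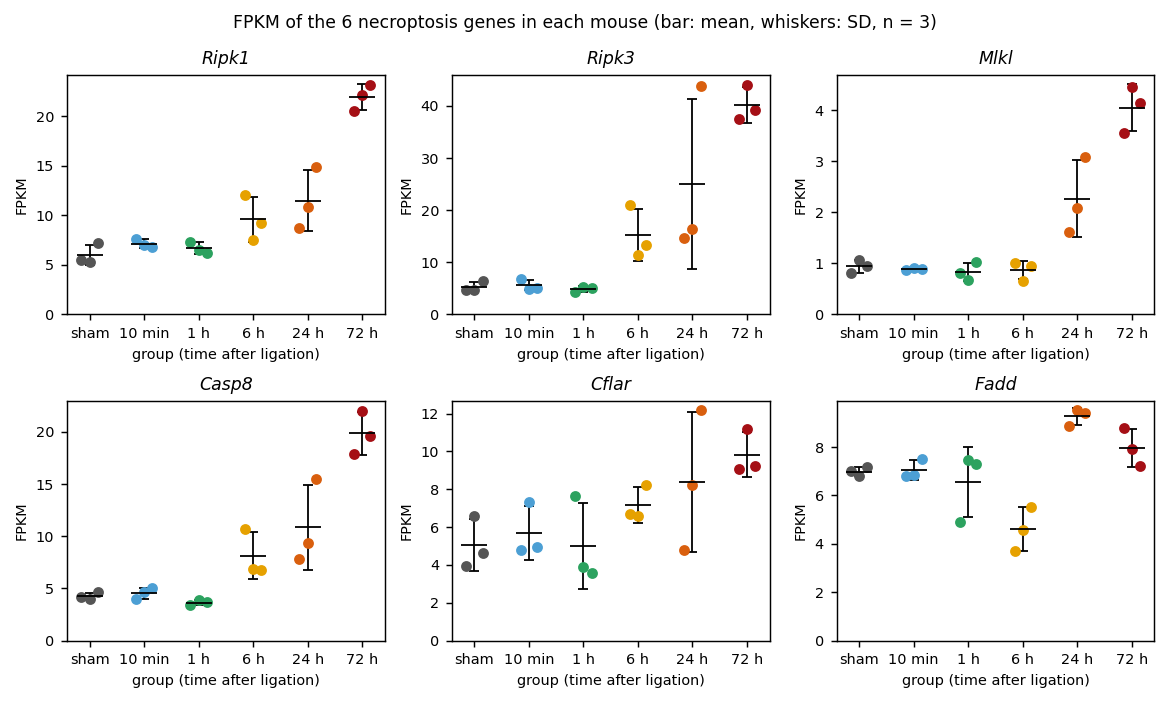
FPKM of Ripk1, Ripk3, Mlkl, Casp8, Cflar and Fadd (1 panel each, y axis from 0) in the sham mice and at 5 times after ligation (x axis). Points are mice and bars the mean ± SD of 3. Ripk3 reached 37.5 to 44.0 FPKM at 72 h, Mlkl was at 0.658 to 1.07 FPKM in every mouse up to 6 h, and Fadd was lowest at 6 h.

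Casp8, the protease that cleaves RIPK1 and RIPK3, was called at the same times as Ripk3. Its level was 4.15, 4.01 and 4.64 FPKM in sham mice, and 10.7, 6.89 and 6.80 FPKM at 6 h. At 24 h it was 7.83, 9.30 and 15.5 FPKM, and at 72 h 17.9, 22.0 and 19.6 FPKM. All mice from 6 h on lay above all sham mice. The log2 change was 0.77 (SE 0.17, adjusted p = 0.0161) at 6 h, 1.12 (SE 0.22, adjusted p = 0.0120) at 24 h and 1.98 (SE 0.09, adjusted p = 2.65e-07) at 72 h. The call at 6 h was lost without the first or the second sham mouse (adjusted p = 0.0617 in both).

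Cflar, the caspase-like partner that tunes caspase-8, was called at 72 h and at no earlier time. It was at 3.95, 6.60 and 4.63 FPKM in sham mice and at 6.68, 6.56 and 8.25 FPKM at 6 h. At 24 h it was at 4.80, 8.21 and 12.2 FPKM and at 72 h at 9.10, 11.2 and 9.22 FPKM. The sham mice themselves spread widely, and the mice at 6 h and 24 h overlapped them, whereas those at 72 h did not. The log2 change was 0.45 (SE 0.17, adjusted p = 0.0893) at 6 h, 0.58 (SE 0.31, adjusted p = 0.167) at 24 h and 0.86 (SE 0.16, adjusted p = 0.000939) at 72 h. It was called at 6 h without the second sham mouse (adjusted p = 0.0396) and at 24 h without the first mouse of that time (adjusted p = 0.0303).

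Fadd, the adaptor that docks caspase-8, took a course of its own. It was at 7.0, 6.79 and 7.17 FPKM in sham mice and at 3.70, 4.58 and 5.52 FPKM at 6 h. At 24 h it was at 8.88, 9.54 and 9.40 FPKM and at 72 h at 8.77, 7.94 and 7.21 FPKM. The mice at 6 h were all below sham, those at 24 h were all above, and the lowest at 72 h was only just above the highest sham mouse. The log2 change was -0.52 (SE 0.13, adjusted p = 0.0244) at 6 h, 0.36 (SE 0.08, adjusted p = 0.0184) at 24 h and 0.16 (SE 0.08, adjusted p = 0.101) at 72 h. The fall at 6 h kept its size but lost its call without any 1 of the sham mice (adjusted p 0.0728 to 0.0876). The rise at 24 h was no longer called after median-of-ratios scaling (0.22, adjusted p = 0.0611) or quantile normalization (0.16, adjusted p = 0.148). The direction at 72 h depended on the scaling. Rescaling each mouse to the same sum gave 0.24, called higher (adjusted p = 0.0309), median-of-ratios scaling gave -0.12, and quantile normalization gave -0.28, called lower (adjusted p = 0.0229). Without the third mouse at 72 h it was also called higher (0.23, adjusted p = 0.0455).

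**Figure D2:**
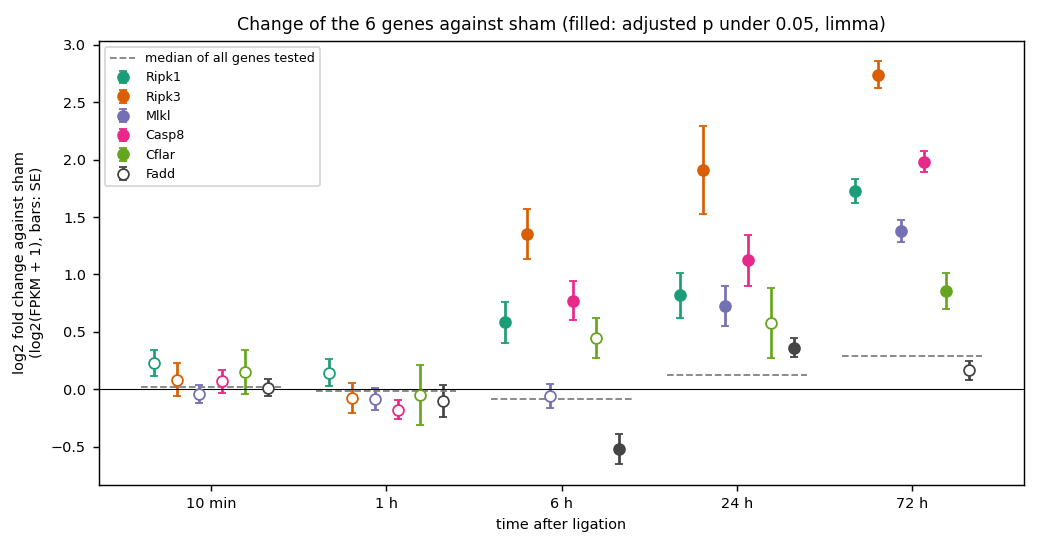
Log2 change of each member against sham (y axis, log2(FPKM + 1), bars SE) at 10 min, 1 h, 6 h, 24 h and 72 h (x axis). Filled points were called, open points were not, and dashed lines give the median of all tested genes. At 72 h Ripk3 stood at 2.74 and Fadd at 0.16, with the median of all genes at 0.29.

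Counted together, 3 of 6 members rose and 1 fell at 6 h, beside 11.6% of all tested genes called higher and 16.8% called lower. The 3 higher, Ripk1, Ripk3 and Casp8, did not overlap sham, as was true of 18.6% of genes above sham, and Fadd was among the 30.2% below. Without the first sham mouse, Ripk3 alone was called higher. At 24 h, 5 of 6 were called higher, beside 26.2% of all genes, and the same 5 lay above sham without overlap, beside 39.3%. That count was 0 without the first or the second sham mouse and 3 without the third, while the changes differed little (Ripk3, for example, 1.84 and 1.85 without the first and second). At 72 h, 5 of 6 were called higher, beside 53.1% of all genes, and all 6 lay above sham, beside 55.1%. The calls of Ripk1, Ripk3, Mlkl, Casp8 and Cflar at 72 h were kept when any 1 of the 6 mice was left out, with a highest adjusted p of 0.00463 (Cflar).

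The 6 members had a median change of 0.52 at 6 h, 0.77 at 24 h and 1.55 at 72 h, beside a median over all tested genes of -0.08, 0.13 and 0.29. After median-of-ratios scaling, which brought the median of all genes at 72 h to 0.03, the members' changes at 72 h were 2.44 for Ripk3, 1.69 for Casp8, 1.43 for Ripk1, 1.14 for Mlkl and 0.57 for Cflar. Quantile normalization gave the lowest values for Mlkl (0.86) and Cflar (0.42), both still called.

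Consecutive times showed between which samplings each gene moved. From 10 min to 1 h no member was called (0.602% of all genes were), although Casp8 had an unadjusted limma p of 0.0394. The unadjusted p was under 0.05 for 1739 of 13298 tested genes. From 1 h to 6 h, Ripk3 rose by 1.43 (adjusted p = 0.00630) and Casp8 by 0.95 (adjusted p = 0.0115), 2 of 6 beside 9.32% of all genes. From 6 h to 24 h, Mlkl rose by 0.78 (adjusted p = 0.0359) and Fadd by 0.89 (adjusted p = 0.0193), 2 of 6 beside 12.5%. Neither was called without any 1 of the 3 mice at 6 h or without the second at 24 h, and 1 of the 2 was without the third at 24 h. Mlkl was also no longer called there after median-of-ratios scaling (0.64, adjusted p = 0.0652). Ripk3 and Casp8 did not pass between these times (0.56, adjusted p = 0.351, and 0.35, adjusted p = 0.362). From 24 h to 72 h, Ripk1 rose by 0.91 (adjusted p = 0.00568), Casp8 by 0.86 (adjusted p = 0.0188) and Mlkl by 0.65 (adjusted p = 0.0210), 3 of 6 beside 29.7%. Mlkl was no longer called there after quantile normalization (0.34, adjusted p = 0.0906). Without the third mouse at 24 h, 5 of 6 were called, Ripk3 with 1.31 (adjusted p = 6.42e-05) against 0.83 (adjusted p = 0.106) with it. Without the first or second mouse at 24 h, or the second or the third at 72 h, Ripk1 alone was called.

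The balance of the death and the brake genes was set out as a ratio within each mouse, log2 of (FPKM + 1) of one gene over that of the other. The ratio of Ripk3 to Casp8 was 0.12, 0.17 and 0.39 in sham mice. At 6 h it was 0.90, 0.65 and 0.87, at 24 h it was 0.83, 0.76 and 1.44, and at 72 h it was 1.03, 0.97 and 0.96. From 6 h on, every mouse lay above every sham mouse, by 0.58, 0.79 and 0.76 on average. The ratio of Ripk3 to Ripk1 was -0.22, -0.15 and -0.15 in sham mice and 0.83, 0.96 and 0.73 at 72 h, and was higher by 0.77 at 6 h, 1.09 at 24 h and 1.02 at 72 h, again without overlap. At 1 h it differed from sham by -0.22, with every mouse below every sham mouse. Thus Ripk3 was below Ripk1 in each sham mouse and above it in each mouse from 6 h on, both levels being per length.

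The ratio of Cflar to Casp8 was -0.06, 0.60 and 0.00 in sham mice and -0.90, -0.92 and -1.01 at 72 h, a difference of -1.13 without overlap. At 24 h the difference was -0.54 without overlap, and at 6 h it was -0.32 with overlap. The ratio of Mlkl to Casp8 was -1.51, -1.28 and -1.54 in sham mice, and differed from sham by -0.83 at 6 h, -0.40 at 24 h and -0.61 at 72 h. This ratio depends on the value added, and with 0.1 in place of 1 the differences were -0.13 at 24 h and -0.19 at 72 h. With 3 mice against 3 the exact two-sided permutation test cannot go below p = 0.1, which each ratio without overlap reached, and the adjusted p over the 20 tests was 0.167.

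**Figure D3:**
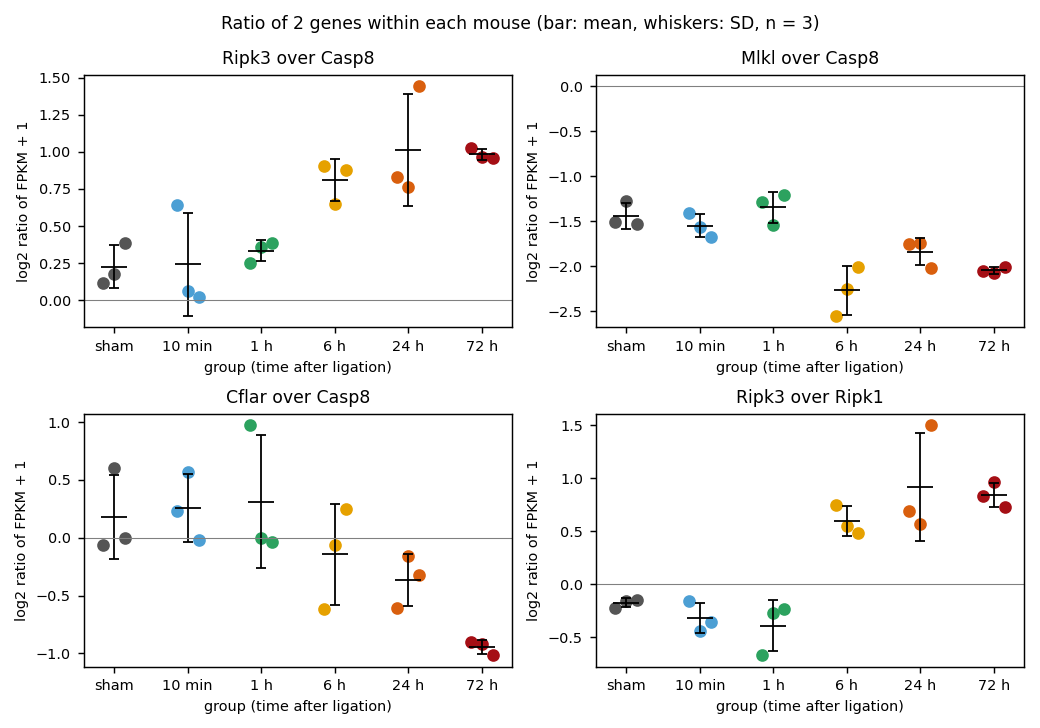
Log2 ratio of FPKM + 1 of 2 members within each mouse (y axis) by group (x axis), with 1 panel for each of 4 ratios. Points are mice and bars the mean ± SD of 3. Both ratios of Ripk3 were above the sham mice from 6 h on, and Cflar over Casp8 was lowest at 72 h, at -0.90 to -1.01.

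The mean sums of pan-leukocyte and of macrophage markers rose from 6 h to 24 h to 72 h, as did mean Ripk1, Ripk3 and Casp8. None of these members was called between 6 h and 24 h (adjusted limma p 0.351 to 0.475). The fibroblast sum rose clearly at 72 h. The mean neutrophil sum was 501 at 6 h, 411 at 24 h and 58.9 at 72 h. Its ranges at 6 h and 24 h overlapped, and S100a9 (mean 382 FPKM at 6 h) dominates it. Between 6 h and 24 h, 0 of 7 neutrophil genes were called in either direction. The means of Csf3r and Il1r2 rose in that step, and those of the other neutrophil genes fell. At 6 h, when the mean leukocyte sums were above sham, Mlkl had not moved and Fadd was lower. The summed FPKM of 10 pan-leukocyte genes (Ptprc, Cd53, Coro1a and others) was 58.4 to 80.8 in sham mice, 80.5 to 269 at 6 h, 327 to 755 at 24 h and 1097 to 1275 at 72 h. The sum of 10 macrophage and monocyte genes was 205 to 235 in sham mice, 188 to 380 at 6 h, 577 to 937 at 24 h and 3723 to 4791 at 72 h. The sum of 7 neutrophil genes was 2.32 to 5.01 in sham mice, 118 to 1006 at 6 h, 43.4 to 977 at 24 h and 51.9 to 62.6 at 72 h. The sum of 8 fibroblast genes (Col1a1, Postn and others) was 385 to 449 in sham mice, 297 to 384 at 6 h, 383 to 535 at 24 h and 4198 to 5218 at 72 h, when 8 of 8 were called higher. None of these markers was at 0 in all 3 mice of a group.

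The first mouse at 6 h had the highest leukocyte, macrophage and neutrophil sums of its group and also the highest Ripk1, Ripk3, Mlkl and Casp8. The third mouse at 24 h likewise had the highest of these 3 sums and the highest Ripk1, Ripk3, Mlkl, Casp8 and Cflar of its group. The second mouse at 6 h had a pan-leukocyte sum of 80.5, below the highest sham mouse, and a neutrophil sum of 118. Its macrophage sum of 188 was below every sham mouse. Abundant genes dominate the pan-leukocyte and macrophage sums, such as Lcp1 (44.3 FPKM in this mouse) and Lyz2 (100 FPKM). Laptm5, Cd52 and Lcp1 lay within the sham range and Adgre1, Csf1r and Lyz2 below it. The other pan-leukocyte and macrophage genes were above every sham mouse, among them Cd53 (4.18 FPKM), Coro1a (14.1 FPKM), Msr1 (14.1 FPKM) and Cd14 (15.8 FPKM). In this mouse, Ripk3 (11.4 FPKM), Casp8 (6.89 FPKM) and Ripk1 (7.46 FPKM) were above every sham mouse, as was the neutrophil sum. Fadd, in contrast, was lowest at 6 h in the mouse with the highest sums. The part of these cells in the members' changes was not tested.

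**Figure D4:**
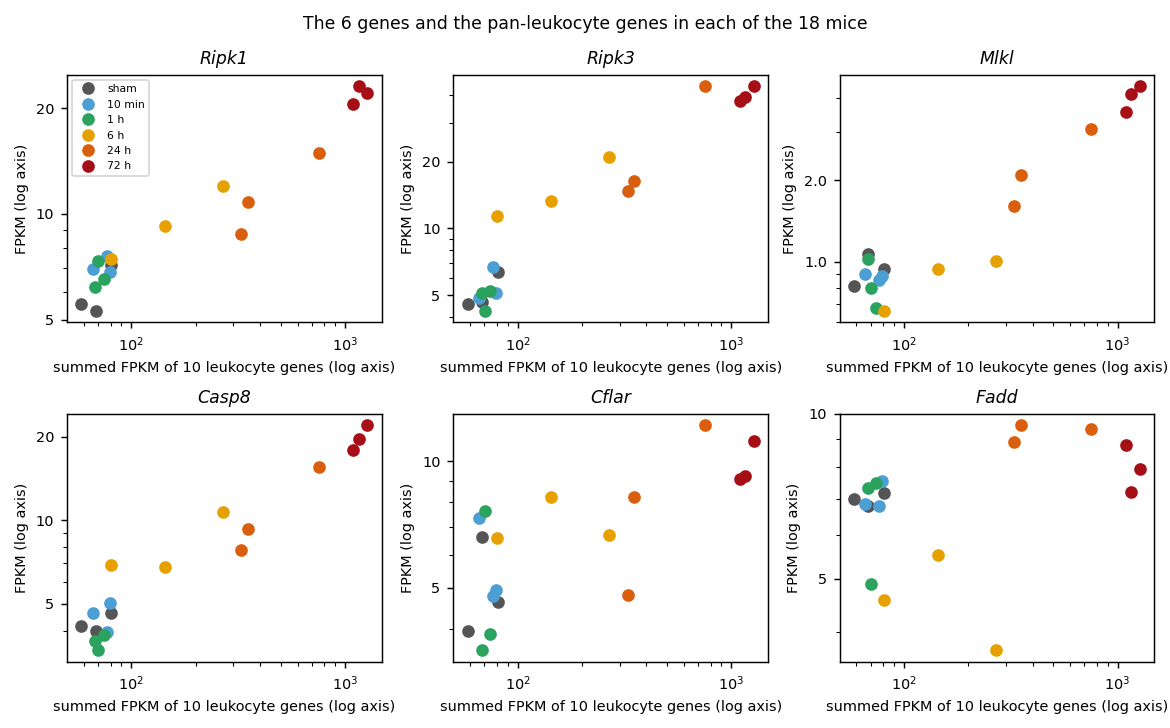
FPKM of each member (y axis, log) against the summed FPKM of 10 pan-leukocyte genes (x axis, log) in each of 18 mice, coloured by group. The second mouse at 6 h lies at a sum of 80.5, beside the sham mice, with Ripk3 at 11.4 FPKM. Lcp1 alone makes up 44.3 FPKM of that sum. In that mouse Laptm5, Cd52 and Lcp1 lay within the sham range, and the other pan-leukocyte genes lay above it. The points share libraries and the total to which FPKM are scaled.

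The genes that feed the pathway were read from lists of ligands, receptors and sensors, of which 13 of 14 were tested. At 6 h 6 rose and 1 fell, at 24 h 8 rose and 1 fell, and at 72 h 11 rose and 1 fell. Over all tested genes, 11.6% rose and 16.8% fell at 6 h, 26.2% rose and 11.4% fell at 24 h, and 53.1% rose and 24.2% fell at 72 h. Tnfrsf1a, the TNF receptor that nucleates the RIPK1 complex, was at 13.96 to 16.1 FPKM in sham mice and at 35.3 to 42.7 at 6 h, a change of 1.29 (adjusted p = 0.000475), and its change was 1.32 at 72 h. Its ligand Tnf was at 0.546, 0.713 and 5.88 FPKM at 24 h (1.12, adjusted p = 0.133), high in the third mouse alone, and rose by 0.69 at 72 h (adjusted p = 0.00199). Fas, another death receptor, rose by 1.00 at 6 h (adjusted p = 0.00126) and was at -0.03 at 72 h (adjusted p = 0.811). Tnfsf10, the ligand TRAIL, was the gene that fell, by 1.36 at 6 h (adjusted p = 0.000748) and by 0.71 at 72 h (adjusted p = 0.000264). Zbp1, the nucleic acid sensor that engages RIPK3 directly, was at 0.0839 to 0.164 FPKM in sham mice and 2.56 to 3.27 at 72 h (1.75, adjusted p = 8.46e-07), and was not called at 6 h (0.22, adjusted p = 0.0711). Because Zbp1 is low, the added 1 FPKM shrinks its change. Its mice at 6 h (0.247 to 0.371 FPKM) all lay above the sham mice, a pattern that 18.6% of all genes shared. On the log2(FPKM + 1) scale, the largest changes of the list at 72 h were those of Tnfrsf1b (3.06), the second TNF receptor, Tlr4 (1.84), Zbp1 and the adaptor Tradd (1.68).

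Regulators of the RIPK1 complex by ubiquitin and kinases were read in the same way, beside the same shares of all genes. Of 21 genes tested, 2 rose and 2 fell at 6 h, 7 rose and 0 fell at 24 h, and 15 rose and 1 fell at 72 h. Birc3, a ubiquitin ligase of RIPK1, rose by 1.06 at 6 h (adjusted p = 0.0101) and by 1.21 at 72 h. Otulin, which removes linear ubiquitin chains, rose by 0.45 at 6 h (adjusted p = 0.0394). Ikbkg (NEMO) and Rbck1 (HOIL-1) fell by 0.53 and 0.36 at 6 h (adjusted p = 0.0122 and 0.0402). Tnfaip3 (A20), a ubiquitin editor, was the only gene of the pathway lists called at 1 h (0.58, adjusted p = 0.0233), missed the threshold at 6 h (0.89, adjusted p = 0.0672) and rose by 0.95 at 72 h. Ikbke, a kinase of the IKK family, was at 0.243 FPKM in sham mice and 2.97 at 72 h (1.67, adjusted p = 2.72e-06).

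Of 20 regulators and partners of RIPK3 and MLKL tested, 3 rose and 0 fell at 6 h, 8 rose and 1 fell at 24 h, and 8 rose and 7 fell at 72 h, when 53.1% of all genes rose and 24.2% fell. The risers at 6 h were the chaperone Hsp90aa1 (1.15, adjusted p = 0.0148), the ubiquitin ligase Peli1 (0.80, adjusted p = 0.00445) and the ESCRT-III subunit Chmp4b (0.48, adjusted p = 0.0116), whose complex repairs the membrane. Aurka, a mitotic kinase, had the largest change at 72 h (3.27, from 0.496 to 13.5 FPKM). Slc25a4, the mitochondrial ADP/ATP carrier of muscle, fell by 1.64 at 72 h (adjusted p = 8.37e-06), and Camk2d, the cardiac kinase that RIPK3 can activate, by 0.28 (adjusted p = 0.00468). Pgam5, a mitochondrial phosphatase linked to RIPK3, was not called at 6 h, 24 h or 72 h (0.06, 0.20 and -0.15).

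Other cell death genes were set beside the members. Of 9 apoptotic caspases and apoptosome genes, 0 rose and 1 fell at 6 h, 3 rose and 0 fell at 24 h, and 7 rose and 2 fell at 72 h, beside 26.2% of all genes higher at 24 h and 53.1% higher and 24.2% lower at 72 h. Bid, which caspase-8 cleaves to engage mitochondria, rose by 2.43 at 72 h (adjusted p = 1.90e-06), and Apaf1, the core of the apoptosome, by 1.75 (adjusted p = 1.26e-06). Of 9 pyroptosis genes, 4 rose and 1 fell at 6 h, 6 rose at 24 h and all 9 rose at 72 h. These counts stand beside the same shares of all genes. Il1b rose by 4.16 and Casp4 by 1.64 at 6 h. Casp1, which matures interleukin-1 beta, fell by 0.36 at 6 h (adjusted p = 0.0357) and rose by 2.11 at 72 h. Gsdmd, the pore former of pyroptosis, was at -0.16 at 6 h and 0.31 at 24 h (adjusted p = 0.183 and 0.187) and rose by 1.21 at 72 h (adjusted p = 1.06e-05), so that, as with Mlkl, no call was made at 6 h. The FPKM of Casp1 and Gsdmd at 1 h and 6 h differed from the paper's qRT-PCR, which had both genes significantly raised from 1 h on. At 1 h, 0 of the 9 pyroptosis genes were called, beside 0.722% of all genes. The paper also reports rising CASPASE1 protein and activity.

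**Figure D5:**
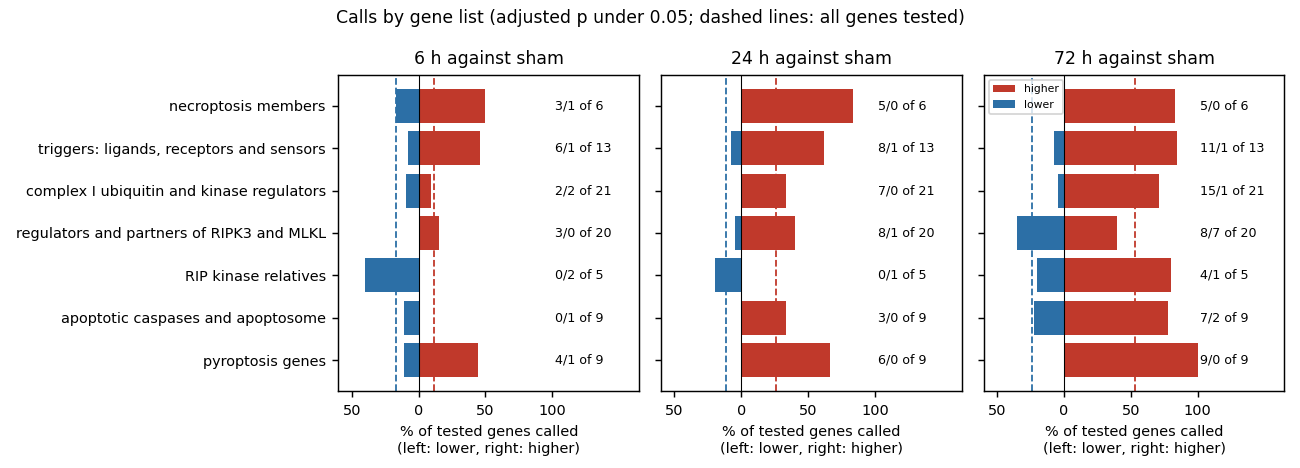
Share of tested genes called higher (right) and lower (left) against sham, in percent (x axis), for the members and 6 pathway lists (y axis) at 6 h, 24 h and 72 h, with dashed lines for all tested genes. Numbers give higher/lower of tested. The members stood at 3/1 of 6 at 6 h and 5/0 of 6 at 24 h and 72 h.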

How the data were processed

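PolyA RNA from the heart of 18 mice was sequenced, 1 library per mouse. FPKM were estimated by the authors with StringTie 1.3.4d from reads trimmed with cutadapt 1.18 and aligned to mm10 by HISAT2 2.1.0. The annotation is not given in the sources used here, and no batch is named. The deposited FPKM table holds 18 value columns, all used as deposited, 4 of them with a mistyped letter in the name. Read counts were not used, so precision comes from the spread of 3 mice.

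Genes that reached 1 FPKM in any mouse (13333 of 24419) were fitted as log2(FPKM + 1) with limma 3.58.1 (variance trend) in R 4.3.3, two-sided, on the 6 mice compared. Only the limma step was tested on simulated data. In these, few genes changed, each by more than most members did at 6 h and 24 h. Smaller or more widespread changes were not simulated. Ratios were tested with scipy 1.17.1. The members and lists were chosen with earlier results of these data known. From each list the 4 largest called changes at 6 h and at 72 h, and Tnf, Tnfrsf1a, Zbp1, Birc3, Tnfaip3, Camk2d, Pgam5, Casp1 and Gsdmd, could be named (some single genes are not reported here), and Fas was added after its values were seen. Comparisons against sham share the 3 sham mice. The alternatives were leaving out each mouse, another pseudocount, 2 filters, 3 scalings, all 18 mice in 1 fit, the replicate number as a block, and no variance trend.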

Additional observations from a re-analysis of the deposited data

How the results depend on the processing

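The calls at 72 h of Ripk1, Ripk3, Mlkl, Casp8 and Cflar held under every alternative run. Counts at 6 h and 24 h fell mostly without a sham mouse, when calls over all genes also fell, to 1640 to 1840 from 3776 at 6 h and to 1628 to 2114 from 5012 at 24 h. Leaving out each mouse in turn gave 1 to 3 members higher and 0 to 1 lower at 6 h, 0 to 6 higher at 24 h, 0 to 2 higher from 6 h to 24 h, and 1 to 5 higher from 24 h to 72 h. With 3 mice a group, small changes could not be told from the spread, and the change of Mlkl depends on the value added to its low FPKM.

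Changes near 0 turned direction when 1 mouse was left out. Against sham at 10 min they ranged from -0.0382 to 0.214 (Ripk3), -0.0897 to 0.00498 (Mlkl), -0.0217 to 0.322 (Cflar) and -0.0292 to 0.0349 (Fadd), at 1 h from -0.145 to 0.0570 (Ripk3), -0.340 to 0.127 (Cflar) and -0.190 to 0.0711 (Fadd), and at 6 h from -0.112 to 0.0251 (Mlkl). Between times they ranged from -0.118 to 0.0180 (Mlkl) and -0.202 to 0.0590 (Fadd) from 10 min to 1 h, -0.0351 to 0.112 (Mlkl) from 1 h to 6 h, -0.153 to 0.440 (Cflar) from 6 h to 24 h and -0.0311 to 0.562 (Cflar) from 24 h to 72 h. After median-of-ratios scaling and quantile normalization, in this order, Fadd stood at -0.00822 and -0.0200 at 10 min and at -0.116 and -0.281 at 72 h, and Cflar from 6 h to 24 h at -0.0902 and -0.104. From 6 h to 24 h, 1 member was called higher with no filter, 1 after median-of-ratios scaling and 1 after quantile normalization. Calls over all genes between these times were 1107, 771 and 631 in this order, in place of 1922. With quantile normalization 1 member was called lower at 72 h. From 24 h to 72 h, 1 was called lower after median-of-ratios scaling and 1 after quantile normalization, and from 1 h to 6 h, 1 with all 18 mice in 1 fit. The cause was not tested.

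The replicate numbers were not taken to pair the mice, since in no comparison were all 3 correlations of same-numbered mice over 0.1. This rule cannot exclude a pairing. For 1 h against 10 min the correlations were 0.196, 0.0905 and 0.148. With the number as a block, 0 members were called higher from 6 h to 24 h, in place of 2. Over all genes, 1 was called there in either direction, in place of 1922. At 6 h Ripk1 (adjusted p = 0.0515) and at 24 h Fadd (adjusted p = 0.0511) missed the threshold with the block.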

Other observations

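Of 6 kinases related to RIPK1 and RIPK3, 5 were tested, with 0 higher and 2 lower at 6 h, 0 higher and 1 lower at 24 h, and 4 higher and 1 lower at 72 h. In the same order of times, the share of all tested genes called higher was 11.6%, 26.2% and 53.1%. The share called lower was 16.8%, 11.4% and 24.2%. Lrrk2, a kinase with leucine-rich repeats, fell by 0.55 at 6 h (adjusted p = 0.0108), and its relative Lrrk1 fell by 0.36 at 6 h (adjusted p = 0.0282) and rose by 1.09 at 72 h. Ripk2, which acts downstream of NOD receptors, was at 0.10 at 6 h (adjusted p = 0.576) and rose by 0.74 at 72 h (adjusted p = 0.000320). Ripk4, a kinase of epithelial differentiation, was at 0.877 FPKM in sham mice and fell by 0.59 at 72 h (adjusted p = 0.00178).

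The genes whose 6 group means lay closest to those of a member, each centred on its own mean, were described by the root-mean-square difference on the log2 scale. For Ripk3 these were Snai1 (0.077), Tpd52 (0.0997) and Sh2b2 (0.127), and for Ripk1 they were Rbbp8 (0.029), Ptbp3 (0.039) and Bmp2k (0.052). For Mlkl they were Ydjc (0.019), Rab29 (0.043) and Ppapdc1b (0.044), and for Casp8 they were Lsr (0.060), Aacs (0.068) and Ptpn1 (0.079). For Cflar they were Sav1 (0.028), Ptpn23 (0.039) and Frmd4a (0.040), and for Fadd they were Ldb2 (0.056), Med19 (0.061) and Gtpbp3 (0.062). No other member was among the 3 closest to any member, and on this scale the nearest pair of members was Ripk1 and Mlkl (0.204). The added 1 FPKM shrinks the changes of Mlkl, and no other added value was tried for these distances. At 6 h against sham this pair differed, with 0.58 for Ripk1 and -0.06 for Mlkl.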
